A study of Mus musculus with 12 samples.

Results

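The genes that copy DNA in S phase were followed in primary mouse embryonic fibroblasts, as a list of 43 genes that spans licensing of replication origins, activation of the replicative helicase, DNA synthesis, nucleotide supply and the copying of chromatin. Each gene was represented by the probe set of the array's annotation with the highest mean signal over the 12 arrays. That gave 41 genes with a mean of at least 100, of 10059 genes measured in all. Tyms (thymidylate synthase) had its probe sets below that level, the brightest at a mean of 66.0, and Chaf1a had no probe set assigned in the table used here. For 14 of the 41 genes the probe set name carries a suffix (7 with a, 3 with s and 4 with x) that marks probes shared between transcripts or with similar sequences, among them those of Mcm5, Pold1, Fen1 and Rrm2 (suffix x).

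The fibroblasts came from e14.5 embryos, received adenovirus carrying Cre recombinase at passage 3 in every line, controls included, and were expanded afterwards. Of the 3 control lines, flox1 carried 1 conditional allele of Crebbp, which encodes the histone acetyltransferase CBP, and flox2_1 and flox2_2 carried 1 conditional allele of Ep300, the gene for p300. Among the triCH1 lines, 3 of the 4 alleles of Crebbp and Ep300 lacked the CH1 domain, through which CBP and p300 bind HIF-1α. The remaining allele was conditional, Crebbp in triCH1flox1 and Ep300 in triCH1flox2_1 and triCH1flox2_2. The labels do not say how complete the recombination of the conditional alleles by Cre was. How far the control and triCH1 cells kept these alleles intact is therefore not known. Subconfluent cells of each line were kept for 6 h at 21% O2 (normoxia) or 0.1% O2 (hypoxia), with 5% CO2 at 37 °C, and each culture was measured on 1 array, which gave 4 groups of 3 arrays. The labels do not say how many embryos a line came from, so a p-value measures only the spread between these cultures, and a genotype that 1 line carries cannot be told apart from that line.

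Signals are in the authors' scaled intensity units, with array medians between 57.2 and 76.1. All 12 arrays were of 1 lot. As a check of the treatment, all 12 HIF target genes were higher in hypoxia over both line types. Of these, 11 had an adjusted p under 0.05 in limma, against 1.75% of all tested probe sets in either direction. Fibroblast genes such as Vim (35593.7 to 50587.3) and Col1a2 (23059.6 to 36583.3) were high on every array, whereas Pdgfra (14.7 to 774.8), Dcn (12.1 to 856.2) and Lum (104.7 to 4269.4) varied among lines. Defining genes of macrophages (Ptprc, mean 21.1; Itgam, mean 17.5), endothelium (Pecam1, mean 9.1) and epithelium (Cdh1, mean 39.5) were low. Of the 10 macrophage, 9 endothelial and 9 epithelial markers, 4, 1 and 3 were measured, and the summed signal of each list lay between 571.5 and 995.7, 351.7 and 956.5, and 1474.6 and 7758.9. Most of the epithelial sum came from Krt19 (967.9 to 7280.9).

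Replication starts at origins bound by the origin recognition complex, where Cdc6 and Cdt1 load the ring of Mcm2 to Mcm7 in G1. In S phase Cdc45 and the GINS complex turn that ring into the active helicase, primase and DNA polymerases α, δ and ε make the new strands, and the clamp PCNA, loaded by replication factor C, holds the polymerases on DNA. Many of these genes are known targets of E2F transcription factors, which the retinoblastoma proteins restrain outside S phase, so that their transcripts rise in cycling cells and fall in resting ones. In RNA from whole cultures, fewer cells in S phase and less RNA per cell cannot be told apart.

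RefSeq promoter windows (GRCm38.p6, 250 bases before to 50 after a transcript start) were found for 34 of the 41 genes, and were searched on both strands for 2 E2F-type motifs of 8 letters, TTTCGCGC and TTTGGCGC. A match was present in 11 of the 34 genes (32.4%): Mcm3, Mcm5, Mcm6, Mcm7, Cdt1, Orc1, Uhrf1, Lig1, Pole2, Pola1 and Rfc3. A match was found in 0.813% of all 32851 windows, in 0.929% of all 27025 genes and in 1.97% of the 8223 measured genes with a window. Among other gene lists, 3 of 26 other replication factors and 1 of 34 mitotic genes had a match. The 6 matching genes with the highest mean signal are shown because they include the licensing genes described below. Capitals mark the matches, and positions are counted from the transcript start as +1. In Mcm5 the 2 motifs overlap on opposite strands between -153 and -142, in Mcm6 they overlap between -110 and -99 with a further match from -47 to -40, and in Uhrf1 the match lies from -185 to -178. For these 3 genes the 250 bases before the start are given:
Mcm5, chr8:75109259-75109508, plus strand: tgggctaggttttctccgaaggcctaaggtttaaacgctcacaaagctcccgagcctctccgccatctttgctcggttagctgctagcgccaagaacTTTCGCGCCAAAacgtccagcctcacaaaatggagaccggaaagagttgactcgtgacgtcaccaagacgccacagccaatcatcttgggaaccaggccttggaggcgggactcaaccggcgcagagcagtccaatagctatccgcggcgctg
Mcm6, chr1:128359706-128359955, minus strand: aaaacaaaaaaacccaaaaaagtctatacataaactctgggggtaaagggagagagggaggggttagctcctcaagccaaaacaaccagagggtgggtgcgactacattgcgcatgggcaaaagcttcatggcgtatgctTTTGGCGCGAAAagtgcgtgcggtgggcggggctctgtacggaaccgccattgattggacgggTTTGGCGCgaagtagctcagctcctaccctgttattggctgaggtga
Uhrf1, chr17:56304063-56304312, plus strand: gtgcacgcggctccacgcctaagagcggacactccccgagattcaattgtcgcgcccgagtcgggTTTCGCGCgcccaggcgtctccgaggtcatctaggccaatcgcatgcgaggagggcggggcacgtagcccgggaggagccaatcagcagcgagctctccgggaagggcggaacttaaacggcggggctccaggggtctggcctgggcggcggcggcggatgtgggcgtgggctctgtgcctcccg
In Mcm7, Cdt1 and Mcm3 the match lies just after the start (17 to 24, 33 to 40 and 39 to 46), and 30 bases around it are given:
Mcm7, chr5:138171849-138171878, minus strand: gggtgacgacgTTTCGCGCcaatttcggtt
Cdt1, chr8:122568035-122568064, plus strand: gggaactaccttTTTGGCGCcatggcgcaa
Mcm3, chr1:20820263-20820292, minus strand: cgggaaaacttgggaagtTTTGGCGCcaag
A match is a description of the letters only, and no binding was measured in these cells. For each gene the fold of the triCH1flox2 lines over the other lines was taken. Its median was 2.04 over the 11 genes with a match (1.49 to 2.53). Over the 23 genes with a window and no match it was 1.83 (1.21 to 2.95). The ranges overlapped.

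The level of the replication genes differed mainly by line. In the 2 triCH1flox2 lines they were higher than in the 3 control lines and in triCH1flox1, by a median of 1.84-fold (1.07-fold for Gins4 to 2.95-fold for Cdc6). These 2 lines were the 2 highest of the 6 in 38 of the 41 genes, and all 4 of their arrays lay above the other 8 arrays in 32 of 41, against 4.08% of all tested probe sets. This division of the lines, used here and below, was taken from the levels in these data. The counts and folds describe the division and do not test it. A limma F test of differences among the 6 lines, with oxygen level as an additive term, called 32 of the 41 genes, against 15.8% of all tested probe sets. Here and below a gene is called where p, after Benjamini-Hochberg adjustment, is under 0.05, tests are on log2(signal + 20), and folds between lines are ratios of mean signals. The F test sets lines against the spread between their 2 arrays. It tests neither a genotype nor the excess of the triCH1flox2 lines. In the descriptions by role that follow, adjusted p-values and genes said to pass refer to this F test. The lowest line was flox1 in 20 genes and flox2_1 in 16. The ratio of the highest to the lowest line had a median of 2.25 and reached 4.56 for Cdc6 and 4.5 for Hells.

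**Figure D1:**
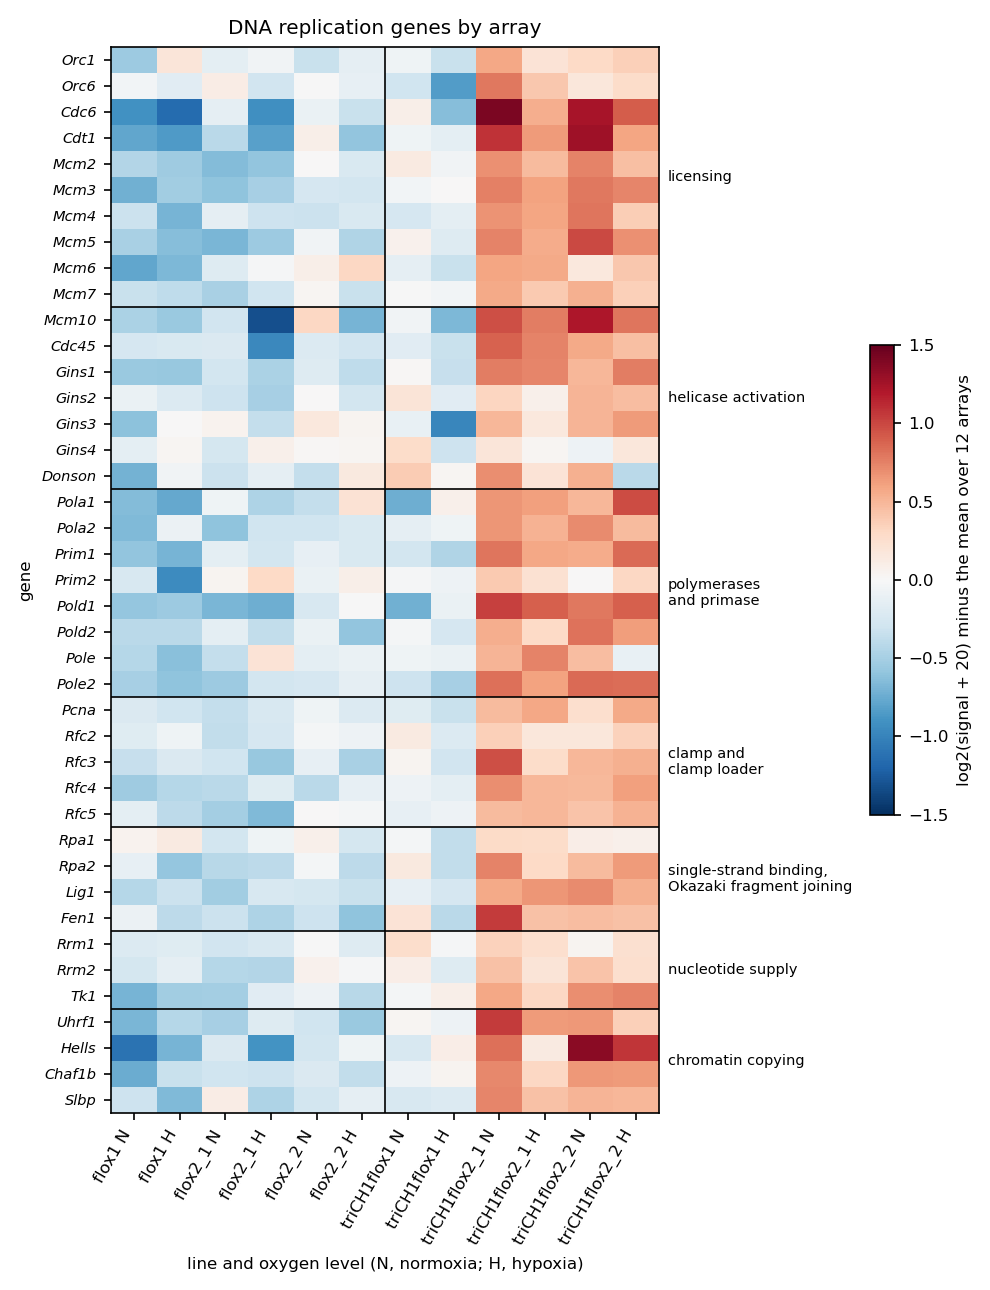
Heat map of the 41 genes (rows, ordered by role) on the 12 arrays (columns, N for normoxia and H for hypoxia), with colour giving log2(signal + 20) minus the gene's mean over the arrays; the scale ends at 1.5 in both directions. The 4 columns of the triCH1flox2 lines are red in nearly all rows, and all 4 lie above the other 8 arrays in 32 of the 41 genes.

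Among the 10 licensing genes, 9 differed among lines, and their median excess in the triCH1flox2 lines was 1.86-fold. Cdc6, the loader of the helicase ring, had signals of 286, 502.5 and 517 in the normoxic and 239, 284 and 434 in the hypoxic arrays of flox1, flox2_1 and flox2_2, and 588, 1508 and 1332.5 in the normoxic and 348, 818 and 1061 in the hypoxic arrays of triCH1flox1, triCH1flox2_1 and triCH1flox2_2. The 4 triCH1flox2 arrays did not overlap the other 8, whereas triCH1flox1 lay within or just above the control range (limma F test, adjusted p = 5.84e-05). Cdt1, the partner of Cdc6 in loading, read 1135, 1475 and 2092 in the normoxic and 1078, 1107 and 1293.5 in the hypoxic arrays of flox1, flox2_1 and flox2_2, and 1881, 4171 and 4785 in the normoxic and 1765, 3058 and 2961 in the hypoxic arrays of triCH1flox1, triCH1flox2_1 and triCH1flox2_2 (adjusted p = 4.35e-05). Here too the triCH1flox2 arrays were the 4 highest, at 2.53-fold the mean of the other lines.

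The subunits of the Mcm2 to Mcm7 ring were also higher in the triCH1flox2 lines. Mcm5 had signals of 2135, 1850.2 and 2884 in the normoxic and 1919, 2052 and 2183 in the hypoxic arrays of flox1, flox2_1 and flox2_2, and 3118, 5042 and 5979.8 in the normoxic and 2617, 4419.6 and 4811 in the hypoxic arrays of triCH1flox1, triCH1flox2_1 and triCH1flox2_2 (adjusted p = 4.78e-05). For Mcm3 they were 913.5, 989 and 1264.5 in the normoxic and 1051.5, 1068 and 1243 in the hypoxic arrays of flox1, flox2_1 and flox2_2, and 1467, 2575 and 2642 in the normoxic and 1522, 2306 and 2533.5 in the hypoxic arrays of triCH1flox1, triCH1flox2_1 and triCH1flox2_2 (adjusted p = 7.25e-05). In both genes triCH1flox1 lay between the control lines and the triCH1flox2 lines. Mcm7, the licensing gene with the highest mean signal, read 4054, 3618 and 5213 in the normoxic and 3918, 4128 and 4055 in the hypoxic arrays of flox1, flox2_1 and flox2_2, and 5063, 7559 and 7364 in the normoxic and 4941.5, 6686 and 6559.9 in the hypoxic arrays of triCH1flox1, triCH1flox2_1 and triCH1flox2_2. Its excess in the triCH1flox2 lines was 1.61-fold, and that of Mcm2, Mcm4 and Mcm6 was 1.83, 1.89 and 1.54-fold. In Mcm6 the line triCH1flox1, with a line mean of 2249.8, lay below flox2_1 with 2464.8 and flox2_2 with 3045, and flox2_2 was close to triCH1flox2_2 with 3235. Of the origin recognition subunits, Orc6 differed among lines (adjusted p = 0.00924), with triCH1flox1 the lowest at 801. Orc1 did not pass (adjusted p = 0.296), although the 4 triCH1flox2 arrays were again the highest.

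**Figure D2:**
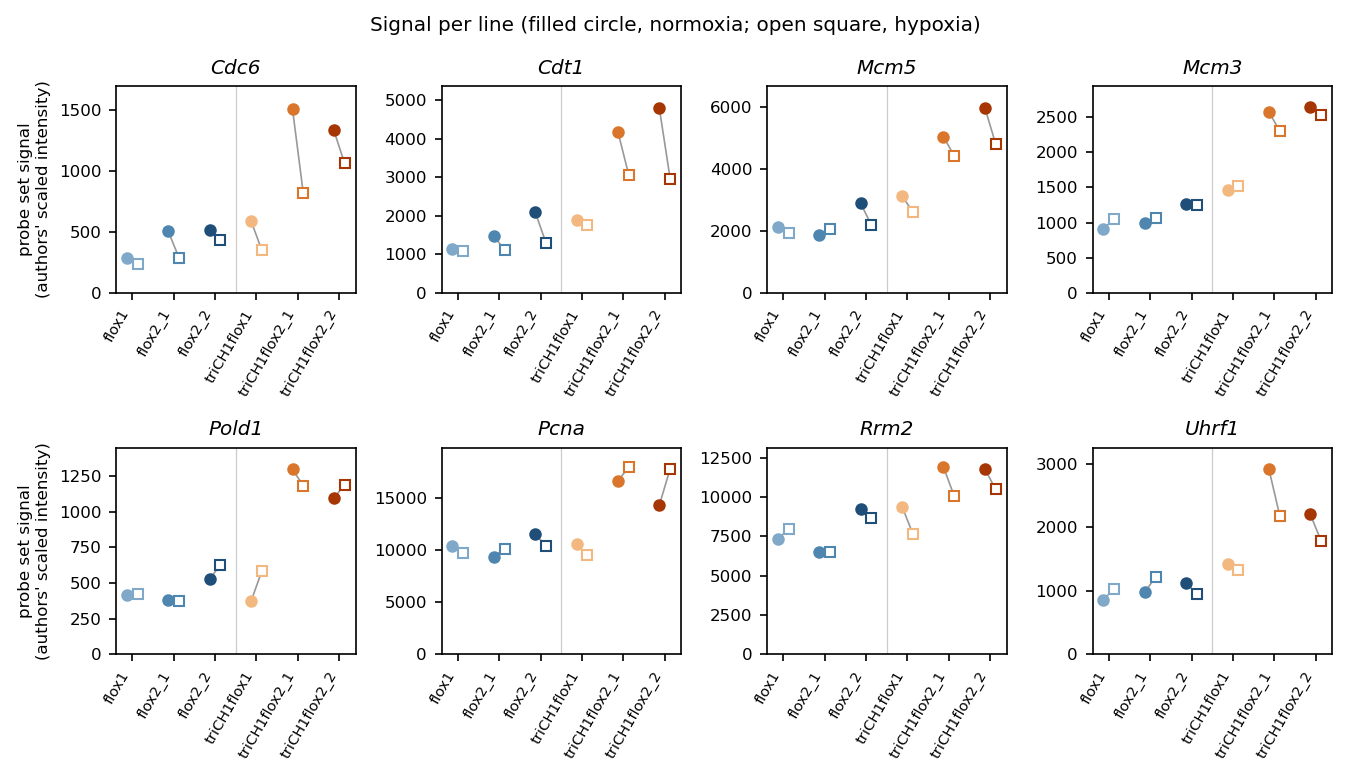
Probe set signals (authors' scaled intensity, linear axes from 0) of 8 replication genes in the 6 lines, with the normoxic array as a filled circle and the hypoxic array as an open square joined by a line. Both triCH1flox2 lines lie above the other 4 lines in all 8 panels, and Cdc6 and Cdt1 are lower in hypoxia in each line.

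Helicase activation was less uniform, with 4 of 7 genes called and a median excess of 1.64-fold. Mcm10, which promotes helicase activation, had line means of 208, 178 and 283 in flox1, flox2_1 and flox2_2, and 239, 577 and 639.7 in triCH1flox1, triCH1flox2_1 and triCH1flox2_2 (adjusted p = 0.000957), and Cdc45 had 288, 229.8 and 288 in the control lines and 287, 623.5 and 499 in the triCH1 lines (adjusted p = 0.00423). The GINS subunits differed from each other. Gins1 was 2.12-fold and Gins2 1.43-fold higher in the triCH1flox2 lines. Both differed among lines (limma F test, adjusted p = 0.00247 and 0.0215), whereas Gins3 did not pass (0.168). Gins4, the gene of this role with the highest mean, was nearly level, with line means of 1397, 1372 and 1482 in flox1, flox2_1 and flox2_2, and 1467, 1565 and 1506 in triCH1flox1, triCH1flox2_1 and triCH1flox2_2. Its ratio of highest to lowest line was 1.14, the smallest of the 41 genes (adjusted p = 0.956). Donson, a helicase assembly factor, did not differ among lines by this test (adjusted p = 0.39).

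Of the 8 polymerase and primase genes, 6 were called, with a median excess of 1.98-fold. Pold1, the catalytic subunit of polymerase δ, had signals of 413, 384 and 529 in the normoxic and 426, 372 and 627 in the hypoxic arrays of flox1, flox2_1 and flox2_2, and 373, 1299 and 1101 in the normoxic and 584, 1184 and 1188 in the hypoxic arrays of triCH1flox1, triCH1flox2_1 and triCH1flox2_2 (adjusted p = 0.000157). The lowest triCH1flox2 array, at 1101, stood above the highest of the other 8, at 627. Prim1, the catalytic subunit of primase and the gene of this role with the highest mean, had line means of 706, 956 and 985 in flox1, flox2_1 and flox2_2, and 863, 1818 and 1829 in triCH1flox1, triCH1flox2_1 and triCH1flox2_2 (adjusted p = 0.000329). Pole2, a subunit of polymerase ε, was 2.3-fold higher in the triCH1flox2 lines, Pola1 and Pola2 of polymerase α 2.09 and 1.89-fold, and Pold2 1.84-fold. Prim2 and Pole did not pass (adjusted p = 0.107 and 0.0798).

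The clamp gene Pcna had signals of 10364, 9386 and 11515 in the normoxic and 9731, 10144 and 10446 in the hypoxic arrays of flox1, flox2_1 and flox2_2, and 10572, 16699 and 14346 in the normoxic and 9498, 17977 and 17829 in the hypoxic arrays of triCH1flox1, triCH1flox2_1 and triCH1flox2_2. The control lines and triCH1flox1 lay within a narrow band, and the triCH1flox2 lines were 1.64-fold higher. Pcna differed among the lines (limma F test, adjusted p = 0.000771). Of the clamp loader genes, Rfc3, Rfc4 and Rfc5 differed among lines by the F test, and Rfc2 did not (adjusted p = 0.159). In that order, their folds in the triCH1flox2 lines were 1.86, 1.84, 1.65 and 1.31. Among the genes for single-strand binding and Okazaki fragment joining, the ligase Lig1, the nuclease Fen1 and the single-strand binding subunit Rpa2 differed among lines by the F test. Their folds in the triCH1flox2 lines were 1.93, 1.88 and 1.77. Rpa1, the largest subunit of the same complex as Rpa2, did not pass the F test (adjusted p = 0.133). Its line means were 9224, 7703 and 8162 in the control lines and 7579, 10521 and 9194 in the triCH1 lines.

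Nucleotide supply showed the smallest excess, with a median of 1.40-fold over 3 genes. Rrm2, the S phase subunit of ribonucleotide reductase, had line means of 7667, 6516.5 and 8959 in flox1, flox2_1 and flox2_2, and 8538, 10999.5 and 11157 in triCH1flox1, triCH1flox2_1 and triCH1flox2_2 (adjusted p = 0.00397). Tk1, thymidine kinase, read 1001, 1218 and 1303 in the control lines and 1569.8, 2108 and 2536 in the triCH1 lines (adjusted p = 0.00138). Rrm1, the large reductase subunit, was 1.25-fold higher in the triCH1flox2 lines and did not pass the F test among lines (adjusted p = 0.0598). All 4 genes of chromatin copying passed. Slbp, which binds histone mRNA, was 1.76-fold higher in the triCH1flox2 lines, the chromatin assembly subunit Chaf1b 1.86-fold and Uhrf1, which helps to maintain DNA methylation, 2.04-fold. Hells, a chromatin remodeller, had the widest spread between the 2 triCH1flox2 lines, with line means of 335, 439.8 and 568 in the control lines and 610.5, 925 and 1508 in the triCH1 lines. Among the 18 omissions of 1 array or of 1 line, 9 ended the call among lines for Gins2, 7 for Pola1, 4 for Pola2 and 3 for Orc6. Without triCH1flox2_1, 7 of the 32 genes were no longer called, and without triCH1flox2_2, 5 were not.

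Most other probe sets of the same genes behaved alike. In 23 of the genes 30 further probe sets passed the filter, and all 30 were higher on average in the triCH1flox2 lines than in the other lines. Of the 30, 20 were called among lines, against 15.8% of all tested probe sets. The further probe sets of Rfc2 were nearly level, at 1.02 and 1.12-fold (limma F test, adjusted p = 0.248 and 0.403). That of Gins3, at 1.3-fold, did not pass either (adjusted p = 0.318). For the genes measured with an x suffix, probe sets without that suffix gave 2.37-fold for Mcm5, 2.57-fold for Pold1, 1.89-fold for Fen1, and 1.6 and 1.5-fold for Rrm2.

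The comparison of the 2 line types asks whether loss of CH1 domains goes with a different level of the genes. Every one of the 41 genes had a higher mean in the triCH1 lines than in the control lines, but none passed the test. Over line means (3 against 3 lines) the median difference was 0.68 on the log2 scale, against 0.03 for all tested probe sets. In limma 0 of 41 were called at an adjusted p under 0.05, as were 0 of all 18903 probe sets (0%). At an unadjusted p under 0.05, 32 of 41 were higher in triCH1 lines, against 5.13% of all probe sets. The line means of the 2 types did not overlap for 22 of 41 genes, all higher in triCH1, against 8.02% of all probe sets.

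The smallest p-values belonged to Mcm3 (0.95 ± 0.22 standard error, adjusted p = 0.238), Uhrf1 (0.89 ± 0.21, adjusted p = 0.252) and Mcm5 (0.95 ± 0.23, adjusted p = 0.255). None of the 3 passed. The largest difference was that of Cdc6 (1.18 ± 0.36, 95% interval 0.36 to 2.00), and the smallest that of Gins4 (0.09 ± 0.12, 95% interval -0.19 to 0.36). At a single oxygen level the picture was similar. In normoxia 41 of 41 genes were higher in triCH1 lines, with a median of 0.66, and 28 had an unadjusted p under 0.05 in that direction, against 3.73% of all probe sets. In hypoxia 39 of 41 were higher, with a median of 0.65, and 28 had such a p, against 4.16%. No gene of the list was called in either (0 of 41), where 0.00529% and 0.0741% of all probe sets were.

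**Figure D3:**
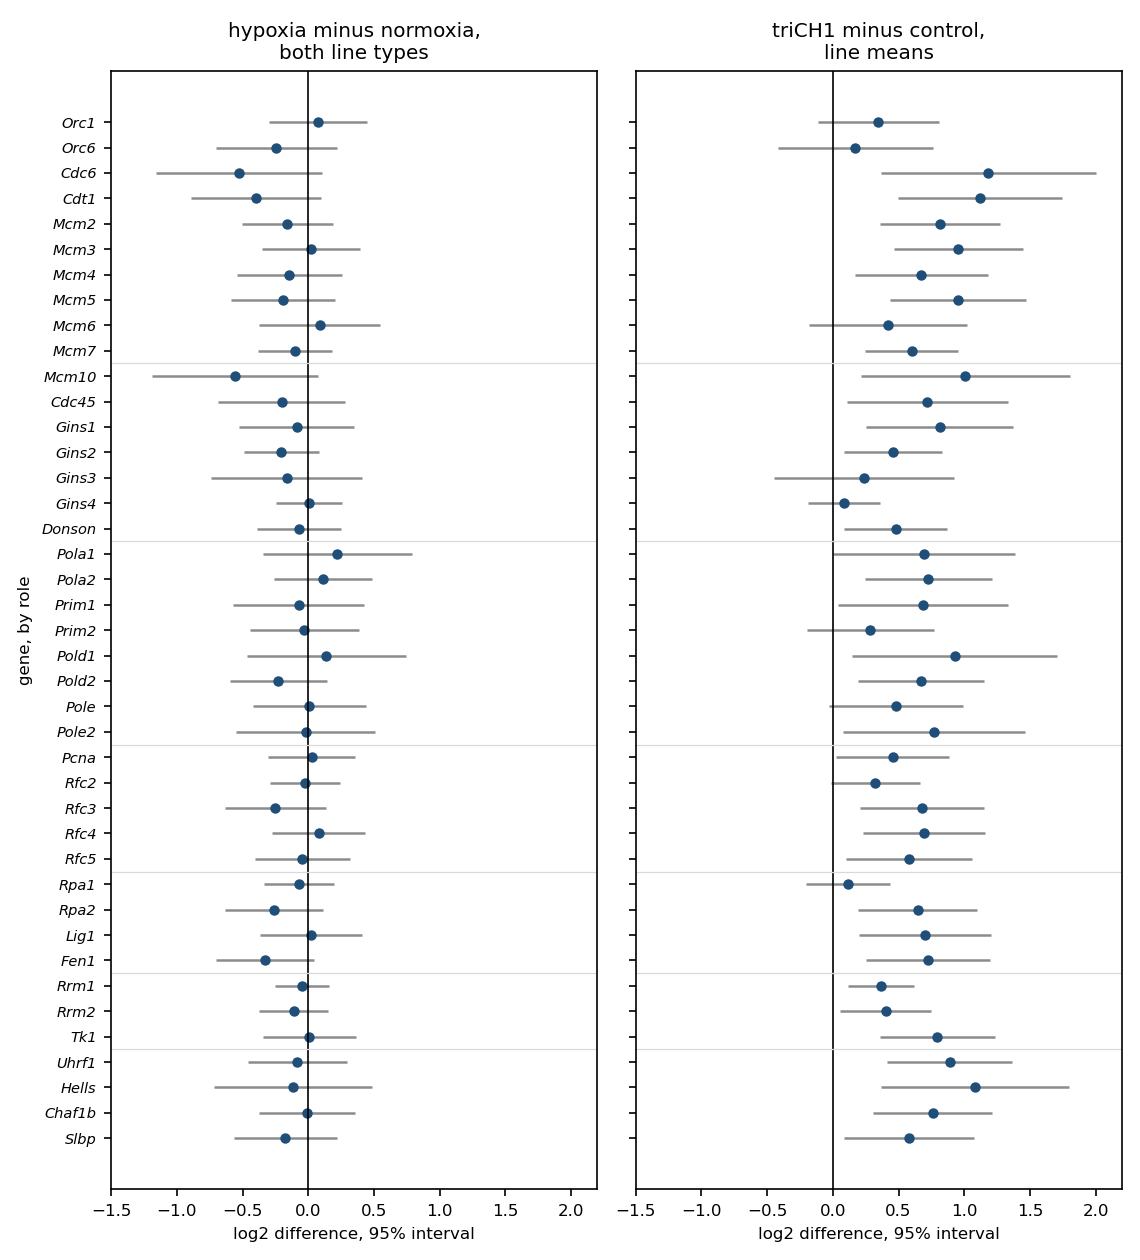
Log2 differences of the 41 genes (points) with 95% intervals from limma (bars), for hypoxia minus normoxia over both line types on the left and triCH1 minus control over line means on the right. On the left the intervals of all 41 genes cross 0, and on the right all points lie above 0, from 0.09 for Gins4 to 1.18 for Cdc6.

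The difference between line types rested on which triCH1 lines were taken. The line triCH1flox1, whose conditional allele is Crebbp, was above the mean of the control lines in 33 of 41 genes, by a median of 1.13-fold. Without its 2 arrays, 26 of 41 genes were called higher in triCH1 over line means (2.64% of all probe sets were called in either direction), 21 in normoxia (1.3%) and 19 in hypoxia (1.46%). Without its normoxic array alone, 4 were called in normoxia (0.333%). With the 4 labelled genotypes as groups on line means, a grouping chosen after seeing the data, triCH1flox2 exceeded flox2 by a median of 1.81-fold. There 41 of 41 genes were higher and 4 were called (0.524% of all probe sets): Cdc6 (2.64-fold, adjusted p = 0.0407 in limma), Cdt1 (2.51-fold, 0.0407), Mcm3 (2.19-fold, 0.0415) and Mcm5 (2.26-fold, 0.0424). Between triCH1flox1 and flox1, 1 line each and with the spread taken from the other lines, 35 of 41 were higher, with a median of 0.28 on the log2 scale, and 0 were called. The 2 triCH1flox2 lines against triCH1flox1 gave a median of 0.69 and 0 calls at a smallest adjusted p of 0.0914, so a difference between the 2 triCH1 genotypes was not established by that test.

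After 6 h of hypoxia no change in the replication genes passed the test. No gene of the list was called in the control lines (0 of 41, against 0.831% of all probe sets), in the triCH1 lines (0 of 41, against 0.635%) or over both types (0 of 41, against 1.75%). The median change was -0.04 in control lines, -0.14 in triCH1 lines and -0.07 over both, against -0.04, -0.02 and -0.03 for all tested probe sets. At an unadjusted p under 0.05, 1 gene was higher and 0 lower in control lines, and 0 were higher and 1 lower in triCH1 lines. In that fit the 95% interval over both types lay within 1 log2 unit of 0 for 39 of the 41 genes. A change of more than 2-fold was thus outside the interval for all but Cdc6 and Mcm10.

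The lowest values belonged to genes of origin loading and helicase activation, and none passed in the fit without pairing. Over both line types Mcm10 changed by -0.56 ± 0.29 (adjusted p = 0.526), Cdc6 by -0.53 ± 0.29 (adjusted p = 0.557) and Cdt1 by -0.40 ± 0.23 (adjusted p = 0.578). Fen1 changed by -0.33 ± 0.17 (adjusted p = 0.527). The signals of Mcm10 were 215, 246 and 384 in the normoxic and 201, 110.5 and 182 in the hypoxic arrays of flox1, flox2_1 and flox2_2, and 294, 619 and 733 in the normoxic and 185, 536 and 547 in the hypoxic arrays of triCH1flox1, triCH1flox2_1 and triCH1flox2_2. In each line the hypoxic array was the lower, although the groups overlapped. With the line as a block, each hypoxic array is compared with the normoxic array of its own line. In that limma fit Cdc6 was the only gene of the list called (adjusted p = 0.0389), with Mcm10 at 0.0756 and Cdt1 at 0.0786. The calls among all probe sets rose from 331 to 693, or 3.67%. The 1 call among 41 genes is not above that share.

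Counted by line, 6 genes were lower in hypoxia in 6 of 6 lines (Cdc6, Cdt1, Mcm10, Gins2, Pold2 and Fen1) and 0 were higher in 6 of 6. Among all probe sets 7.23% were lower and 5.14% higher in 6 of 6. The 6 of 41 genes are to be read against that background. By line, 37 of the 41 genes were lower in hypoxia in triCH1flox2_1 and 31 in triCH1flox1, with medians of -0.20 and -0.18. In each of the other lines 20 to 27 were lower, with medians between -0.11 and 0.03. Over all tested probe sets the medians were -0.014 in triCH1flox2_1, -0.012 in triCH1flox1 and between -0.05 and -0.014 in the other lines. Each line gives 1 array against 1 array, so the genes are not replicates, and these counts were not tested.

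The difference in response between the line types was called for 0 of 41 genes, as for 0 of all probe sets (0%). Donson went opposite ways: it was higher in hypoxia in all 3 control lines and lower in all 3 triCH1 lines, and 0.889% of all probe sets had opposite directions in this way, in either order. Its signals were 192, 257 and 250.4 in the normoxic and 315.5, 297 and 366 in the hypoxic arrays of flox1, flox2_1 and flox2_2, and 431, 541 and 484 in the normoxic and 334, 381 and 241.5 in the hypoxic arrays of triCH1flox1, triCH1flox2_1 and triCH1flox2_2. The change was 0.46 ± 0.21 in control and -0.59 ± 0.21 in triCH1 lines, a difference of -1.05 ± 0.30 (unadjusted p = 0.00345, adjusted p = 1 in limma), so it did not pass the correction. Rfc5 went the other way in every line, with a difference of 0.20 ± 0.34 that did not pass. In normoxia Donson also had the smallest p of the list for triCH1 against control (1.00 ± 0.21, adjusted p = 0.197); in hypoxia the difference was -0.05 ± 0.21. These values rest on the same arrays as the difference in response.

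Many other genes of DNA synthesis and the cell cycle had higher line means in the triCH1flox2 lines, in lists whose counts are to be read against 15.8% called among all probe sets. All 4 triCH1flox2 arrays lay above the other 8 for 17 of 31 other replication factors, 23 of 31 genes of S phase chromatin and repair, 20 of 40 mitotic genes and 1 of 14 genes of nucleotide and thymidylate synthesis, against 4.08% of all probe sets. Of 31 other replication factors, 17 were called among lines, and the median over the list was 1.6-fold in the triCH1flox2 lines. Called members included Tipin, a fork protection factor (2310.3, 2681.5 and 2615 in the control lines and 2798, 4443 and 4410.0 in the triCH1 lines). Gmnn, the inhibitor of Cdt1, was also called (F test among lines, adjusted p = 0.000671) and was 1.99-fold higher in the triCH1flox2 lines. Of 31 genes of S phase chromatin and repair 22 were called, with a median of 1.97-fold, such as Usp1 (2277, 3105 and 3007 in the control lines and 2520.1, 6193 and 5748 in the triCH1 lines) and Pclaf, a PCNA-binding factor (3315, 5389 and 4019.8 in the control lines and 4042, 7931 and 7513 in the triCH1 lines). Of 40 mitotic genes 28 were called, with a median of 1.5-fold, among them Cdk1 (3990.2, 3874 and 4538 in the control lines and 4478, 5887 and 6572 in the triCH1 lines) and Birc5 (3545, 3455 and 4021 in the control lines and 4300.2, 5271.5 and 5508 in the triCH1 lines). Nucleotide and thymidylate synthesis had 4 of 14 called and a median of 1.19-fold. On the arrays, the mean centred log2 signal of the replication genes was 0.44 to 0.68 in the 4 triCH1flox2 arrays and -0.45 to -0.06 in the other 8, and that of the mitotic genes 0.38 to 0.51 and -0.40 to -0.02. Over all tested probe sets it lay within -0.06 and 0.06.

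**Figure D4:**
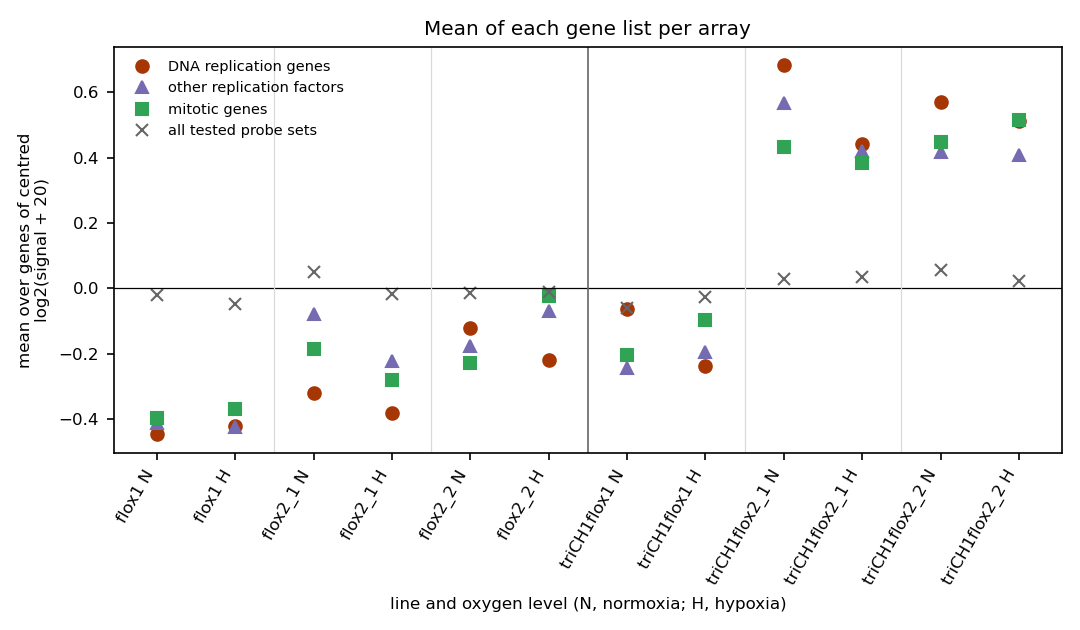
Mean over genes of log2(signal + 20), each gene centred on its mean over 12 arrays, for 4 gene sets on each array (N for normoxia, H for hypoxia). The 3 cell cycle sets lie between 0.38 and 0.68 on the 4 triCH1flox2 arrays and at or below -0.02 on the other 8, while all tested probe sets stay near 0.

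Regulators of entry into S phase were mixed: 17 of 31 were called among lines, 7 of the 31 with all 4 triCH1flox2 arrays above and 5 with all 4 below the other 8. Line means were higher in these lines for Fbxo5, which inhibits the anaphase-promoting complex (2.68-fold, adjusted p = 4.25e-05), the cyclin Ccna2 (2.03-fold, 0.000146), the retinoblastoma relative Rbl1 (2.27-fold, 0.00317) and the repressor E2f7 (2.01-fold, 0.00204). The adjusted p-values are from the F test among lines and do not test the folds. E2f1 and Ccne1 did not pass that test (adjusted p = 0.273 and 0.162). Cyclin D2, Ccnd2, was lower, with line means of 17467, 14968.5 and 17452 in the control lines and 14983, 12432 and 12005 in the triCH1 lines (adjusted p = 0.0055).

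The CDK inhibitor genes, whose products hold cells before S phase, included 4 that were lowest in the triCH1flox2 lines on all 4 arrays, against 3.03% of all tested probe sets. Cdkn1a, which encodes p21, had line means of 17624, 10673 and 13686 in flox1, flox2_1 and flox2_2, and 12011, 6959 and 7364 in triCH1flox1, triCH1flox2_1 and triCH1flox2_2 (adjusted p = 0.000224). Cdkn2b, which encodes p15, read 4510.1, 2083 and 3234 in the control lines and 2651, 1257 and 1154 in the triCH1 lines (adjusted p = 9.93e-06), and Cdkn2a, the source of p16 and p19Arf, read 1484.5, 724 and 861 in the control lines and 596.5, 435 and 329.9 in the triCH1 lines (adjusted p = 5.89e-05). Cdkn1c read 177.5, 738 and 217 in the control lines and 209.5, 94.8 and 84.3 in the triCH1 lines, highest in flox2_1 (adjusted p = 9.89e-05). In flox1, where 20 of the replication genes were lowest, Cdkn1a, Cdkn2a and Cdkn2b were highest. In flox2_1, where 16 of the replication genes were lowest, the same inhibitor genes were instead the lowest of the control lines. Cdkn1b and Cdkn2c were not low in the triCH1flox2 lines. Cdkn1b was lowest in flox1 (401, 776.5 and 1404.5 in the control lines and 1091, 1455 and 1352 in the triCH1 lines). Cdkn2c was highest in the triCH1flox2 lines (814, 822 and 810.0 in the control lines and 847, 1391 and 1334 in the triCH1 lines). Cdkn2d did not pass (adjusted p = 0.562). The part of these genes in the level of the replication genes was not tested.

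**Figure D5:**
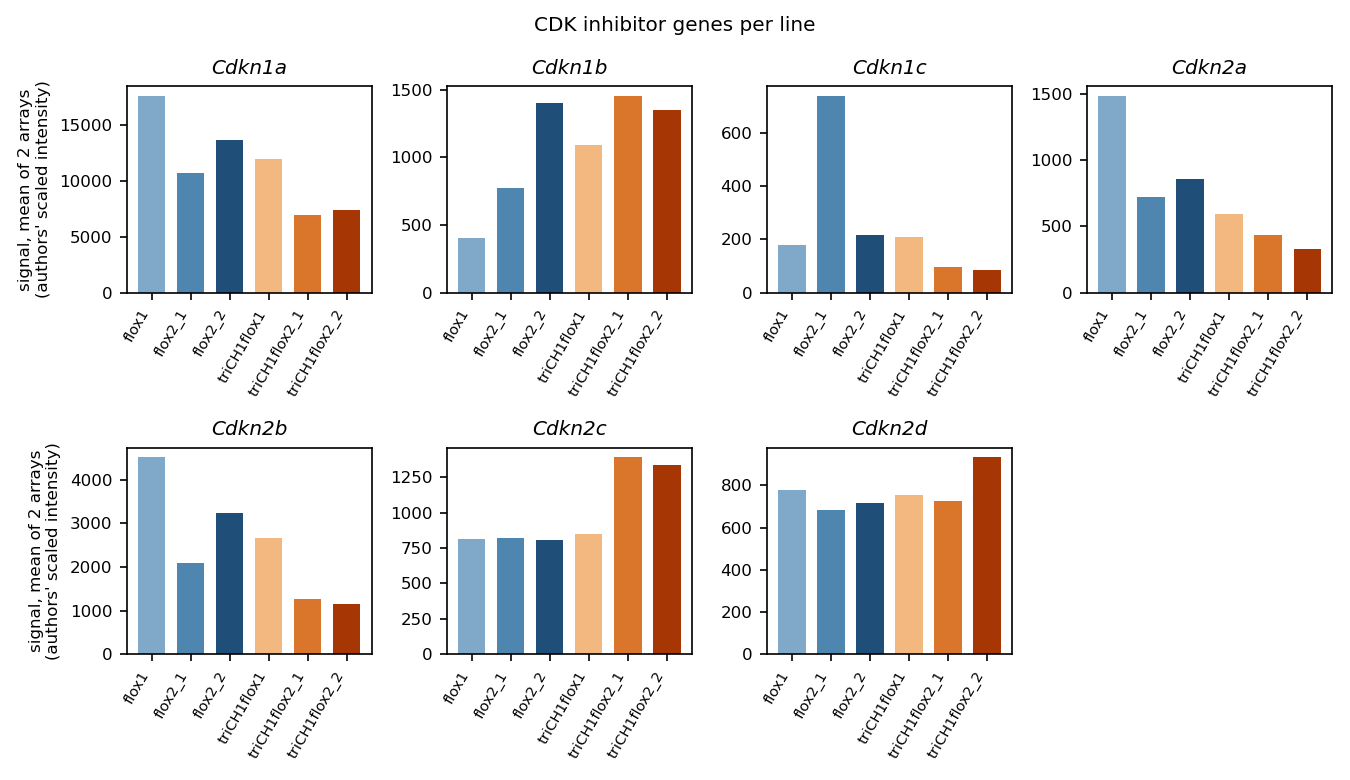
Signals of 7 CDK inhibitor genes in the 6 lines (bars, mean of the normoxic and hypoxic array in the authors' scaled intensity, linear axes from 0). Cdkn1a, Cdkn1c, Cdkn2a and Cdkn2b are lowest in the 2 triCH1flox2 lines, and Cdkn2c is highest there.

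Markers of cell identity differed among the same lines. In the triCH1flox2 lines the fibroblast genes Pdgfra, Dcn and Lum were highest, Lum with 149.8, 245 and 438 in the control lines and 298.5, 3974 and 808 in triCH1flox1, triCH1flox2_1 and triCH1flox2_2, and Thy1 was lowest, with 6087, 4798 and 6835 in the control lines and 3796, 2352 and 2417 in the triCH1 lines. Of the 12 fibroblast markers 6 were called among lines by the limma F test, and their summed line mean lay between 168670.0 and 222852.5. The summed endothelial markers were 952.0, 840.6 and 491.7 in the control lines and 379.0, 405.4 and 352.9 in the triCH1 lines, with Esam between 73.2 and 800.7, while Pecam1 had line means of 3.3 to 21.7 and Cdh5 of at most 52.2. The summed skeletal muscle markers were 16981, 14040.2 and 18038 in the control lines and 13904, 9314.5 and 12866 in the triCH1 lines, nearly all from Acta1, with Myog at 6.7 to 33.8. The summed chondrocyte markers were 2122.5, 3363.3 and 1376.8 in the control lines and 864.5, 1277.5 and 922.3 in the triCH1 lines. Col2a1, a cartilage collagen, was lowest in the triCH1flox2 lines (1545.2, 2257.4 and 722.7 in the control lines and 378.7, 202.0 and 188.8 in the triCH1 lines). Sox9 was also lowest there, at 139.8 and 96.6. Comp and Acan were not: Comp read 192.6, 366.6 and 250.6 in the control lines and 110.6, 723.2 and 302.4 in the triCH1 lines. Acan read 100.6, 452.6 and 139.1 in the control lines and 85.1, 152.8 and 187.9 in the triCH1 lines. The keratin gene Krt18 was highest in the triCH1flox2 lines (124.9, 163.1 and 133.6 in the control lines and 110.8, 369.0 and 384.5 in the triCH1 lines). The summed epithelial markers were 3808.4 to 5061.0 in the control lines and 2722.6 to 3292.4 in the triCH1 lines. Summed neural markers ranged from 3202.4 to 7006.5 and summed adipocyte markers from 804.7 to 2137.9 over the 6 lines. Called among lines were 3 of 4 measured chondrocyte markers, 4 of 5 neural, 2 of 2 adipocyte, 2 of 3 skeletal muscle, 1 of 3 epithelial and 1 of 1 endothelial, against 15.8% of all probe sets. The part of these markers in the level of the replication genes was not tested.

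In hypoxia 3 of the 147 genes of these other lists were called over both line types (2.04%), a share near the 1.75% of all probe sets. Cdc25a, the phosphatase that activates CDK2, fell in 6 of 6 lines (-0.60 ± 0.13, adjusted p = 0.0254 in limma), and so did Gart, an enzyme of purine synthesis (-0.44 ± 0.10, adjusted p = 0.0355). Shmt2, the mitochondrial serine hydroxymethyltransferase, rose in 6 of 6 lines (0.63 ± 0.13, adjusted p = 0.0254). None of the 31 other replication factors, 31 genes of S phase chromatin and repair or 40 mitotic genes was called over both types; at an unadjusted p under 0.05 there were 0 higher and 2 lower, 0 and 2, and 2 and 1. With the line as a block, 9 of the 147 were called (6.12%, against 3.67% of all probe sets): 2 higher and 3 lower in nucleotide and thymidylate synthesis, 1 higher and 2 lower among the regulators of entry into S phase, and 1 lower in S phase chromatin and repair, with 0 among the other replication factors and the mitotic genes.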

How the data were processed

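RNA of 12 fibroblast cultures was measured on Affymetrix Mouse430_2 arrays. The deposited values are linear intensity signals per probe set, for which the authors used the Statistical algorithm of Affymetrix with a target of 500, per the labels. The software version is not given in the sources used here. Of 45101 probe sets, 64 controls were left out. The 18903 probe sets whose mean reached 100 were tested as log2(signal + 20), with no further scaling, in limma 3.58.1 (R 4.3.3): lmFit with 1 mean per group, eBayes with a variance trend, two-sided, Benjamini-Hochberg adjustment over all tested probe sets, and calls at an adjusted p under 0.05. Errors are standard errors of log2 differences. Genotype was also tested on line means, and lines by an F test with oxygen level as an additive term. The number of arrays limits the precision. The fits were also run on simulated data with independent arrays, which did not carry the pairing of arrays by line.

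Normoxic and hypoxic arrays of 1 line were taken as paired by the line name; after removal of group means their correlation was 0.47, 0.28 and -0.02 in flox1, flox2_1 and flox2_2, and 0.54, 0.58 and 0.35 in triCH1flox1, triCH1flox2_1 and triCH1flox2_2. Pearson's r between arrays lay between 0.936 and 0.962, and 0 pairs were identical. The members and lists were chosen with earlier results of these data known. The division into triCH1flox2 lines and other lines was taken from the levels in these data. Named in detail are members called in a contrast, the 3 with the smallest p where fewer than 3 were called in a direction, the member with the highest mean of each role, and called or bright members of other lists; other names were chosen after their values were seen. Alternatives were pseudocounts of 1 and 100, no filter or one at 200, quantile normalization, median centring, no variance trend, the line as replicate block, 1 value per gene, omission of each array and each line, and, chosen after seeing the data, the lines with a conditional Ep300 allele alone and the 4 labelled genotypes. Matching between probe sets and genes used the array's annotation table: 34945 probe sets had 1 symbol, 932 several and 9160 none.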

Additional observations from a re-analysis of the deposited data

Results flagged for a closer look

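The response of Donson to hypoxia, triCH1 minus control, differed by -1.05 on the log2 scale, because its signal was higher in hypoxia in all 3 control lines and lower in all 3 triCH1 lines. In limma the unadjusted p of that difference was 0.00345 and the adjusted p 1. Rfc5 went the opposite way, lower in all 3 control lines and higher in all 3 triCH1 lines, with a difference of 0.20 (unadjusted p = 0.556, adjusted p = 1). Among all tested probe sets 0.889% had opposite directions in this sense.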

How the results depend on the processing

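The counts of replication genes called for hypoxia in control lines, in triCH1 lines and for the difference in response were 0 in each direction under all 27 alternatives. Over both line types 1 gene was called lower with the line as replicate block (paired arrays), against 0 without it. With the block 3.67% of all probe sets were called there in either direction. The replicate block changed no other count of replication genes for which it was fitted. The comparison over line means and the F test among lines were not fitted with it. For triCH1 against control, 0 genes were called under every change of pseudocount, filter, scaling, trend or probe set choice. With the block, fitted in normoxia and in hypoxia but not over line means, 0 were called as well. Under omission of single arrays or lines the counts lay between 0 and 21 in normoxia, 0 and 19 in hypoxia and 0 and 26 over line means. The high ends came from leaving out line triCH1flox1, and the cause of the difference of that line was not tested. The lines with a conditional Ep300 allele alone, chosen after seeing the data, gave 1, 2 and 4 genes (0.196%, 0.227% and 0.503% of all probe sets called). The number called among lines ranged from 25 to 34, against 32. Direction was followed only for some named genes, none of which had passed in the main fit, and their signs stayed the same under all 27 alternatives. These were Donson for the difference in response, and Mcm10, Fen1, Cdc6 and Cdt1 for hypoxia. Over line means they were Mcm3, Uhrf1, Mcm5, Cdt1, Mcm2, Tk1, Cdc6, Pcna and Rrm2. Single genes moved across the threshold nearly always when 1 array or line was omitted, Gins2 in 9, Pola1 in 7 and Pola2 in 4 of 18 omissions. With 3 lines per type, small differences between types cannot be resolved.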
